A study of Rattus norvegicus with 18 samples.

Results

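Integrins, laminins and cadherins are the proteins with which a fibroblast holds on to its matrix and to its neighbours. Their transcripts were followed in Rat1 fibroblasts that lack or carry MYC. Members were taken by symbol: integrin chains (Itga, Itgb), laminin chains (Lama, Lamb, Lamc) and numbered cadherins (Cdh), which gave 48 of the 13188 genes measured. They comprised 18 cadherins, 10 integrin α chains, 8 integrin β chains and 8 laminin chains. The other 4 carry a similar symbol but encode no integrin chain (Itgb1bp1, Itgb1bp2, Itgb3bp and Itgbl1) and are described apart.

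RNA-seq of poly-A RNA was made in 18 libraries, 3 cultures in each of 6 groups, all from HO15.19, a Rat1 derivative with both copies of Myc inactivated (myc-/-), grown in 10% FBS. The paper's methods give a lower share of FBS for Rat1 fibroblasts. MYC was put back as human MYC from the retroviral vector pBabe into a stable line, so that it is driven by the vector and not by the Myc locus, and nothing in the labels says that the 3 cultures of a group came from separate infections. The p-values therefore measure the spread between these cultures, which may be technical. Transfected cells had received 40 nM siRNA and were harvested after 48 h. The deposited values are log2 values on 2 different scales, so comparisons stayed within a scale. The set of 6 holds myc-/- siCtrl cells (no MYC, control siRNA) and myc-/- + MYC cells (no siRNA). The set of 12 holds myc-/- cells (no siRNA) and myc-/- + MYC cells with siCtrl, siAHR-2 or siAHR-5, the last 2 directed at the aryl hydrocarbon receptor gene Ahr. In each set MYC changed together with the transfection label, and these cannot be told apart. In bulk RNA, fewer cells of a kind and less RNA per cell cannot be told apart either.

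Laminins are cross-shaped trimers of an α, a β and a γ chain that polymerise into the basement membrane, the sheet of matrix on which many cells rest. Integrins are αβ pairs that span the plasma membrane, bind laminin, collagen or fibronectin outside and couple to actin through focal adhesion proteins inside. Cadherins bind cadherins of the next cell in a calcium-dependent way and hold the catenins at their cytoplasmic tail. MYC binds DNA with MAX at E-boxes, and AHR binds with ARNT at response elements with the core GCGTG. Fibroblasts typically make N-cadherin and OB-cadherin and lack E-cadherin.

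Promoter sequences, 250 bases before to 50 after the annotated start, were taken from RefSeq (GRCr8) and matched 31 of the 48 members. They are given for 2 laminin chains that were lower with MYC in both sets (Lama5, Lamc1), the laminin chain that was higher in both (Lama4), a cadherin and a collagen-binding integrin chain among the largest decreases (Cdh8, Itga11), and an integrin chain that moved with siAHR-5 but not with MYC (Itgb8). Capitals mark the canonical E-box CACGTG, the AHR core GCGTG and 3 variants of the E-box, each searched on either strand. The variants are CACGCG, which can overlap the AHR core as it does in Lamc1, a form written CAAGTG, and a form written CACCTG. Coordinates are GRCr8 and the sequence is read 5′ to 3′ along the strand given.
Lama5, chr3:187695925-187696224 (-): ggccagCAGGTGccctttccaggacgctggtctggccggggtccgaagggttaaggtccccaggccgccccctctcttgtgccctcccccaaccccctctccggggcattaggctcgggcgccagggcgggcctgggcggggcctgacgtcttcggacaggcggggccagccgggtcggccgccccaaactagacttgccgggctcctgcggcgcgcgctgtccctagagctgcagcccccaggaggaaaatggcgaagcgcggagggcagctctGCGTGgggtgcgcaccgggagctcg
Lamc1, chr13:68051937-68052236 (-): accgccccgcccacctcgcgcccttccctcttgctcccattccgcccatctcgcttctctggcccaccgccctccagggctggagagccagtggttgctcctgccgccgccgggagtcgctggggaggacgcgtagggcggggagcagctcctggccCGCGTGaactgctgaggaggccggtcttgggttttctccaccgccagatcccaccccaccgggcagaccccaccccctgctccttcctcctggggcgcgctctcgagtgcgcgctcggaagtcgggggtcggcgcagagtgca
Lama4, chr20:43946648-43946947 (+): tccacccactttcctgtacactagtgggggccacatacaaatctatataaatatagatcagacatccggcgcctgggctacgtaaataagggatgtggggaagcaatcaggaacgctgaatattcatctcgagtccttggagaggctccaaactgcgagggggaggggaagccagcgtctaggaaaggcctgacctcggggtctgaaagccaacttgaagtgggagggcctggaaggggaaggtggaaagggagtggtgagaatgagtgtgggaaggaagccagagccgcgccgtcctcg
Cdh8, chr19:5500216-5500515 (+): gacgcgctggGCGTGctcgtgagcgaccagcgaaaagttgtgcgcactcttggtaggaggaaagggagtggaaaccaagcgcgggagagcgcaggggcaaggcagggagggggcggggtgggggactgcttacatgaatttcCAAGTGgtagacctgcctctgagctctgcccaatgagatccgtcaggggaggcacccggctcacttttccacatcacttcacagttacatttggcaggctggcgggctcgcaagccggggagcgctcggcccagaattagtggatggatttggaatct
Itga11, chr8:72041182-72041481 (+): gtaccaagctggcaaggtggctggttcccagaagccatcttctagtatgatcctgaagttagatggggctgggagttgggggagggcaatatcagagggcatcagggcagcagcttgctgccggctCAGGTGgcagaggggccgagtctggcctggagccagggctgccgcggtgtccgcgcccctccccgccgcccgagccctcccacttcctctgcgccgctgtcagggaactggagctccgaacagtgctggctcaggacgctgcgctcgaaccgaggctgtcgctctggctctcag
Itgb8, chr6:146351196-146351495 (-): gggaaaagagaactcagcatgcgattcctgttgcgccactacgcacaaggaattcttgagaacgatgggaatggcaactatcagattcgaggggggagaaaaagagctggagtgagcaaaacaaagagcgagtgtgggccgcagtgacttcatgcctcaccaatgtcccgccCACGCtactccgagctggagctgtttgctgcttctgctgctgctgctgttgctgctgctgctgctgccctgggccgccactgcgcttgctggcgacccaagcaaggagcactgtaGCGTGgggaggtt

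CACGTG lay in the promoter of 1 of the 31 members (Cdh15), against 6.42% of all 33469 promoters and 8.90% of those of genes in the table. GCGTG was found in 8 of 31 (25.8%), namely Cdh15, Cdh20, Cdh8, Itgb1bp1, Itgb8, Lama5, Lamb3 and Lamc1, against 29.7% of all promoters and 47.0% of those of genes in the table. CACGCG was found in 1 of 31 (Lamc1) against 8.50% of all promoters and 15.5% of those of genes in the table, CAAGTG in 7 of 31 (22.6%) against 14.1% and 11.1%, and CACCTG in 5 of 31 (16.1%) against 18.8% and 18.5%. Itgb8 holds the AHR core at bases -78 and 38 from its start, Cdh8 at -240, Lamc1 at -92 and Lama5 at 26, while the Lama4 window holds none of the 5 sequences. These matches describe the letters of a window and say nothing of binding.

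Ahr stood at 13.34, 13.26 and 13.22 in myc-/- + MYC siCtrl cells, at 11.97, 11.97 and 12.03 with siAHR-2 and at 11.95, 11.76 and 11.94 with siAHR-5. Both siRNAs lowered it, by 1.29 and 1.39 on the log2 scale (limma, adjusted p = 0.000237 and 0.000216). The rat Myc row was lower with MYC, by 1.26 in the set of 6 (from 9.16-9.47 to 8.01-8.08) and by 2.68 in the set of 12 (from 10.82-10.94 to 8.16-8.27). That row is named for the rat gene, and whether reads of the human transgene add to it was not tested. It therefore does not check the transgene. A gene was called when its fold was at least 1.5 (log2FC of 0.585 in size) and its adjusted p over all 13188 genes at most 0.01. Of fibroblast markers, 9 of 11 had means of at least 5 in every group, with Col1a2 at 3.64 to 4.08, whereas of 9 epithelial markers 5 had means below 5 in the set of 6, as did 7 in the larger set. Epcam was at 2.40 or less, while Krt8 (6.08 to 8.92) and Esrp2 (5.27 to 7.68) were above 5 in every group. A mean of 5 is not a limit of detection, here or in the counts below. With MYC, Itgb2 had a mean of 0.39 in the set of 12 (siCtrl) and 4.76 in the set of 6. The endothelial marker Kdr had a mean of 5.26 in each MYC group of the set of 12. Whether such values are floors of single genes was not tested. Library 2 of the myc-/- cells lay apart from the other myc-/- cultures for several members, as in Itga1, which read 11.58, 10.75 and 11.58.

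With MYC, more of the 48 members were lower than higher. In the set of 6, 14 members were lower (29.2%) and 7 higher (14.6%), against 14.3% and 12.5% of all genes. In the set of 12, 15 members were lower (31.2%) and 3 higher (6.25%), against 14.7% and 10.8% of all genes. Most of the change lay in a minority of members: the median log2FC over all 48 was -0.06 and -0.10, against 0.00 over all genes in both sets, and single members ranged from -4.17 to 2.95 and from -5.11 to 1.01. Members whose mean was below 5 in both groups numbered 12 and 16, and 0 of them were called. Their largest log2FC in size was 0.35 and 0.24. In the set of 12 they were the cadherins Cdh1, Cdh5, Cdh6, Cdh7, Cdh15, Cdh16, Cdh20, Cdh23 and Cdh26, the integrin chains Itgal, Itgam, Itgb2, Itgb3, Itgb6 and Itgb7, and the laminin chain Lamc3.

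**Figure D1:**
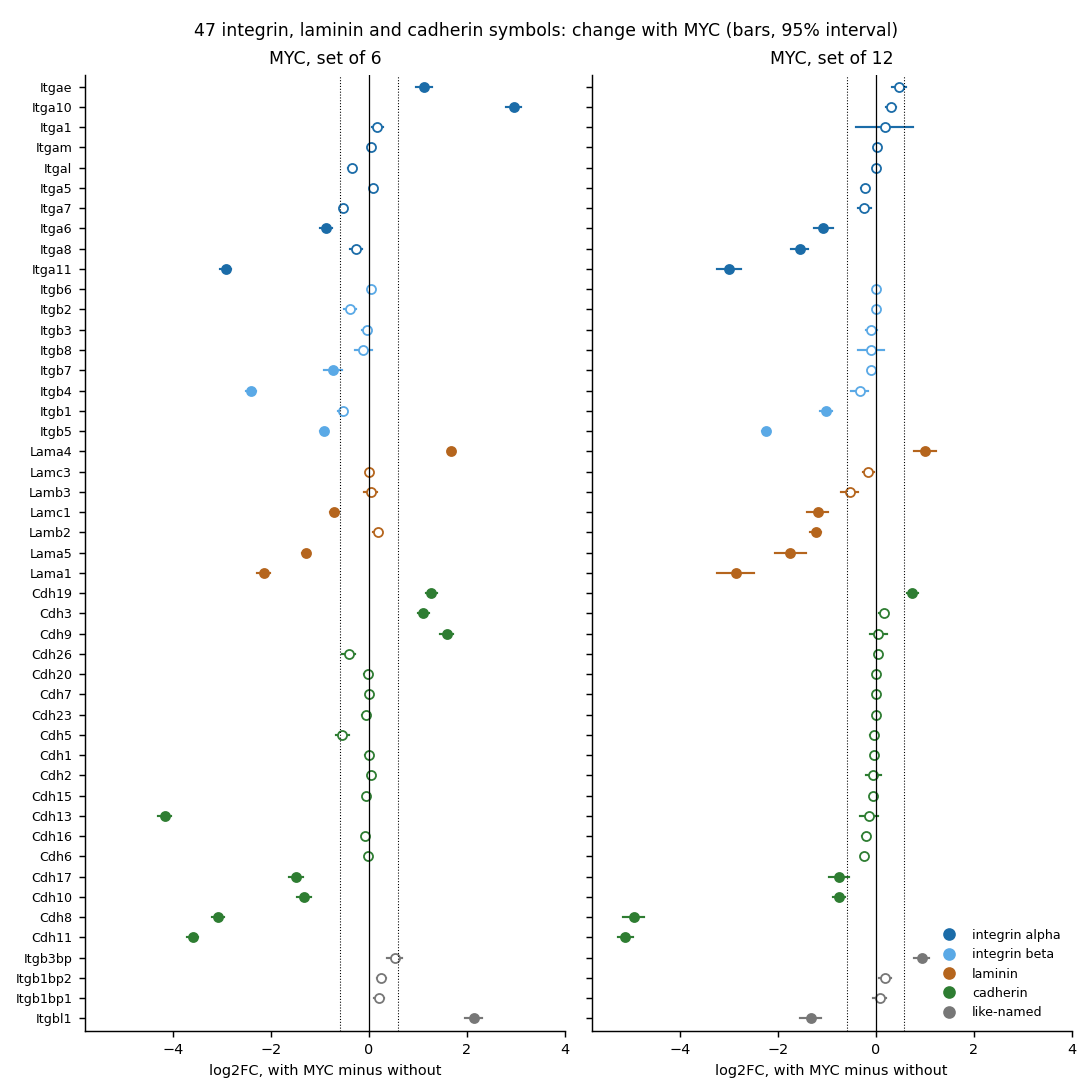
The log2FC of 47 members, with MYC minus without, in the set of 6 (left) and the set of 12 (right), with bars for the 95% interval, colours for the family, filled points for called members and dotted lines at the fold cutoff. Cdh11 and Cdh8 lie far to the left in both panels, Cdh13 (-4.17) in the left panel but near 0 in the right one, and Itgbl1 changes side (2.14 and -1.33).

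Members lower in both sets numbered 11, or 22.9% of members, where 8.91% of all genes were lower in both. Among them were the laminin chains Lama1, Lama5 and Lamc1, the integrin chains Itga6, Itga11 and Itgb5, and the cadherins Cdh8, Cdh10, Cdh11 and Cdh17. Lama4 and Cdh19 were higher in both (4.17% of members against 6.87% of all genes), Itgbl1 went in opposite directions (2.08% against 0.341%), and 23 members were called in neither (47.9% against 63.8%). The sets share no library, but all libraries come from the same parental line. Without library 2 of the myc-/- cells all 18 calls of the set of 12 held. Separation of the libraries with MYC from those without was common among all genes. For the smaller set, 79.2% of members had groups that did not overlap, against 78.8% of all genes. The larger set gave 64.6% against 70.5%. Such separation alone therefore does not set a member apart from other genes.

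Of 8 laminin chains, 4 fell and 1 rose (12.5%) with MYC in the set of 6 (median log2FC -0.35), whereas 5 fell (62.5%) and 1 rose (12.5%) in the set of 12 (median -1.20). Over all genes 14.3% and 14.7% were lower and 12.5% and 10.8% higher. Lama4 was the chain that rose, in both sets. Lama5, the α chain of the laminins of most adult basement membranes, stood at 16.70, 16.75 and 16.67 without MYC and at 15.39, 15.42 and 15.45 with MYC in the set of 6, and at 17.57, 17.08 and 17.52 against 15.66, 15.65 and 15.63 in the set of 12. The groups were far apart in both sets, and the lowest myc-/- library was number 2. Lama5 was thus lower by a log2FC of -1.29 (SE 0.0313, adjusted p = 2.12e-11) and -1.74 (SE 0.132, adjusted p = 7.71e-05). Lamc1, the γ chain of most laminins, read 16.22, 16.27 and 16.27 against 15.45, 15.55 and 15.64 with MYC in the set of 6, and 17.18, 16.88 and 17.16 against 15.92, 15.89 and 15.87 in the set of 12. It was lower in all MYC libraries, with a log2FC of -0.70 (SE 0.0424, adjusted p = 3.52e-08) and -1.18 (SE 0.0860, adjusted p = 6.40e-05), and quantile normalization brought the first just under the fold cutoff, at -0.58.

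Lama1, the α chain of the early embryonic laminin, was at 9.06, 8.997 and 9.13 against 6.90, 6.94 and 6.91 with MYC in the set of 6. It was at 9.77, 9.21 and 9.54 against 6.59, 6.59 and 6.76 in the set of 12. Its groups did not overlap and its log2FC was -2.15 (SE 0.0603, adjusted p = 6.51e-11) and -2.86 (SE 0.150, adjusted p = 1.63e-05). Lamb3, a β chain of epithelial laminin, was not called in either set, with a log2FC of 0.03 and -0.54.

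Lamb2, a β chain of basement membranes of muscle, nerve and kidney, differed between the sets. It read 15.25, 15.33 and 15.31 without and 15.58, 15.44 and 15.40 with MYC in the set of 6 (log2FC 0.18, not called), and 15.66, 15.52 and 15.65 against 14.35, 14.40 and 14.41 in the set of 12 (log2FC -1.22, SE 0.0454, adjusted p = 4.43e-06). Lama4, the α chain of vessel and mesenchymal laminins, rose in both sets. It went from 12.12, 12.14 and 12.08 to 13.80, 13.77 and 13.81 in the set of 6, and from 12.81, 12.54 and 12.88 to 13.77, 13.78 and 13.71 in the set of 12. All 6 MYC libraries were above all myc-/- libraries of their set, with a log2FC of 1.68 (SE 0.0316, adjusted p = 3.09e-12) and 1.01 (SE 0.0900, adjusted p = 0.000153).

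**Figure D2:**
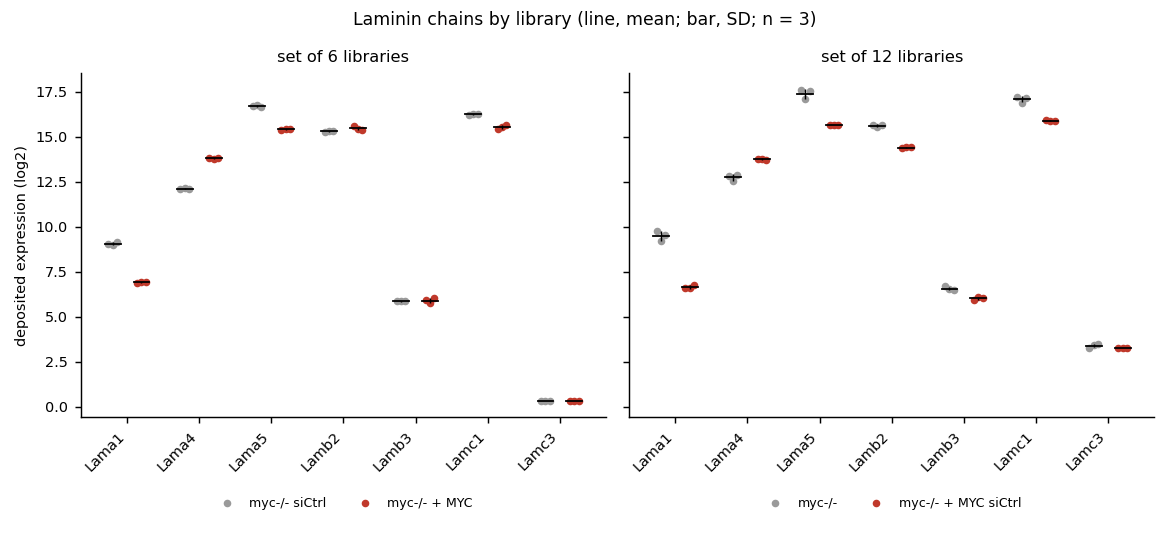
Deposited log2 value of 7 laminin chains in the libraries with and without MYC of each set (the siAHR groups are not drawn), with 3 points a group, a line at the mean and a bar for the SD. Lama4 is the chain whose MYC points lie above the points without MYC in both sets, by 1.68 and 1.01.

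Of the integrin chains, 10 α and 8 β were measured. With MYC 2 α chains rose (20.0%) and 2 fell (20.0%) in the set of 6, whereas 3 fell and 0 rose in the set of 12. Among β chains, 3 (37.5%) and 2 (25.0%) were lower and 0 were higher in either set. Over all genes 12.5% and 10.8% were higher and 14.3% and 14.7% lower. Itga6 encodes the laminin-binding α chain that pairs with Itgb1 or Itgb4. It stood at 14.69, 14.60 and 14.61 against 13.62, 13.76 and 13.88 with MYC in the set of 6, and at 16.17, 15.88 and 16.14 against 15.04, 14.96 and 14.99 in the set of 12. It was lower in both, by a log2FC of -0.88 (SE 0.0549, adjusted p = 4.67e-08) and -1.07 (SE 0.0820, adjusted p = 8.02e-05). Itga7, the laminin-binding α chain best known from muscle, had a log2FC of -0.52 and -0.23 and was not called in either set.

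Itgb1, the β chain that pairs with the largest number of α chains, was at 16.93, 16.88 and 16.84 without and 16.25, 16.39 and 16.40 with MYC in the set of 6. It was at 18.19, 18.06 and 18.18 without and 17.17, 17.11 and 17.12 with MYC in the set of 12. All MYC libraries were lower in both sets. The log2FC of -0.53 in the set of 6 missed the fold cutoff and that of -1.01 in the set of 12 passed it (SE 0.0485, adjusted p = 1.17e-05), and the difference between them, -0.48, was itself not called. Itgb4, the β chain of hemidesmosomes, fell in the set of 6 from 13.47, 13.58 and 13.66 to 11.15, 11.12 and 11.20 (log2FC -2.41, SE 0.0477, adjusted p = 4.47e-12). It read 9.24, 9.13 and 9.11 against 8.78, 8.78 and 8.93 in the set of 12, a log2FC of -0.33 that was not called.

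The collagen-binding α chains moved in different ways. Itga11, the receptor chain for fibrillar collagen in fibroblasts, was at 13.03, 13.14 and 13.05 without and 10.19, 10.04 and 10.22 with MYC in the set of 6, and at 13.30, 12.96 and 13.28 against 10.21, 10.18 and 10.15 in the set of 12. The decreases were -2.93 (SE 0.0519, adjusted p = 2.06e-12) and -2.99 (SE 0.0965, adjusted p = 2.56e-06), and their difference was -0.07 with a 95% interval from -0.30 to 0.16. Itga10, the collagen receptor chain of cartilage, rose in the set of 6 from 6.89, 6.94 and 6.99 to 10.01, 9.89 and 9.78 (log2FC 2.95, SE 0.0703, adjusted p = 1.86e-11), the largest increase of any member there. In the set of 12 it was at 6.61, 6.51 and 6.56 against 6.90, 6.87 and 6.85, a log2FC of 0.31 that was not called. Itga1 was not called, at 0.17 and 0.18, and without library 2 of the myc-/- cells the second value was -0.10.

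Itga5 and Itga8 encode α chains that recognise the RGD sequence of fibronectin and related ligands together with Itgb1. Itga5 stood at 13.96, 14.00 and 13.98 without and 14.07, 14.06 and 14.03 with MYC in the set of 6 (log2FC 0.07), and at 14.69, 14.63 and 14.70 against 14.47, 14.46 and 14.41 in the set of 12 (log2FC -0.23). Neither was called. Itga8 read 7.80, 7.78 and 7.75 against 7.48, 7.57 and 7.48 in the set of 6 (log2FC -0.27, not called) and fell from 8.60, 8.63 and 8.59 to 7.10, 7.14 and 6.92 in the set of 12 (log2FC -1.55, SE 0.0692, adjusted p = 8.71e-06). Itgb5, a vitronectin-binding β chain, was lower in both sets. Its values were 17.01, 17.09 and 17.09 against 16.13, 16.15 and 16.14 with MYC in the set of 6 (log2FC -0.92, SE 0.0305, adjusted p = 2.34e-10), and 17.35, 17.44 and 17.37 against 15.15, 15.15 and 15.16 in the set of 12 (log2FC -2.23, SE 0.0329, adjusted p = 1.86e-07). Itgb8, a β chain that activates latent TGF-β, was not called with MYC (log2FC -0.11 and -0.09).

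Among integrin chains known from leukocytes, Itgb2, their common β chain, read 5.28, 5.06 and 5.09 without and 4.77, 4.75 and 4.75 with MYC in the set of 6 (log2FC -0.39, not called) and 0.39 in every library of the set of 12. Whether these near-constant Itgb2 values are a floor of each set was not tested, so they are not read as levels to compare between sets. Itgae, the α chain of intraepithelial T cells, rose in the set of 6 by a log2FC of 1.12 (adjusted p = 5.37e-08) and read 0.47 in the set of 12, not called. Itgb7, its partner, fell by 0.73 in the set of 6 (adjusted p = 1.00e-05) and read -0.10 in the set of 12. Of 6 leukocyte markers, 2 fell and 0 rose in the set of 6, whereas 2 fell and 1 rose in the set of 12. Their summed level on the log2 scale ran from 11.70 to 11.86 without and 10.73 to 10.83 with MYC in the set of 6, and from 11.11 to 11.19 and 10.45 to 10.65 in the set of 12, and the defining marker Ptprc was below 5 in every group. The part of such cells in the values of Itgae and Itgb7 was not tested.

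**Figure D3:**
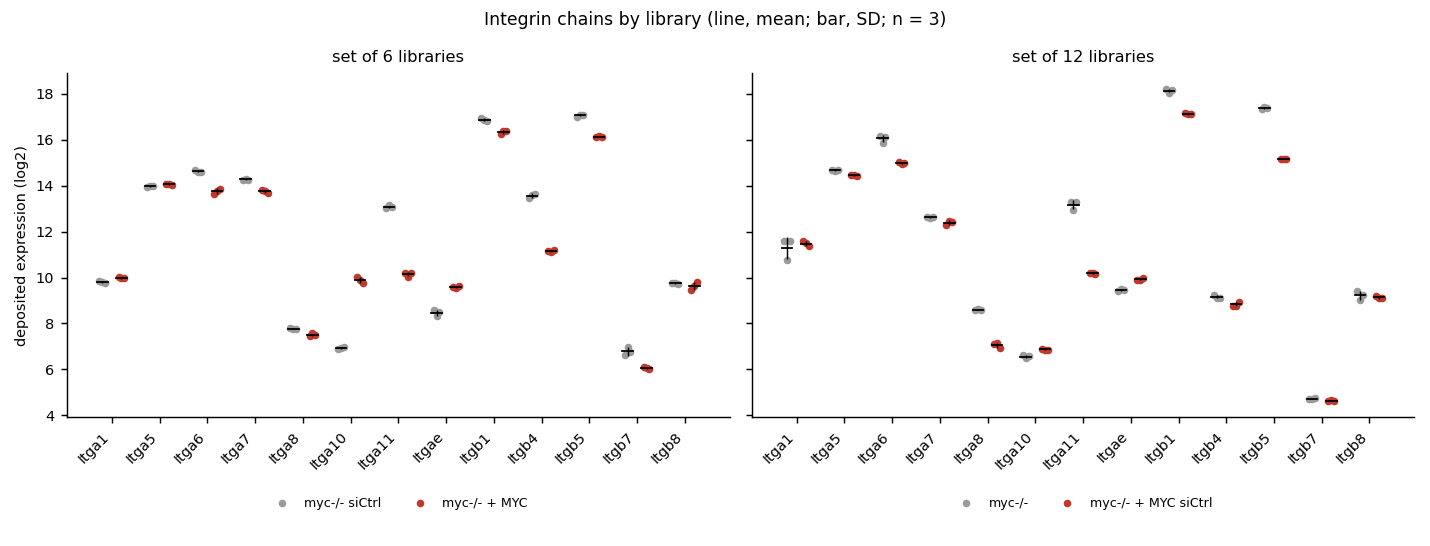
Deposited log2 value of integrin chains in the libraries with and without MYC of each set (the siAHR groups are not drawn), with 3 points a group, a line at the mean and a bar for the SD. Itga11 lies near 13 without MYC and near 10 with MYC in both sets, whereas the drawn MYC points of Itga10 lie far above the others in the set of 6 (9.78 to 10.01) and close to them in the set of 12 (6.85 to 6.90).

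The cadherins held the largest decreases of any member. With MYC 5 of 18 fell (27.8%) and 3 rose (16.7%) in the set of 6, whereas 4 fell (22.2%) and 1 rose (5.56%) in the set of 12. Over all genes 14.3% and 12.5% were lower and higher in the smaller set, and 14.7% and 10.8% in the larger. Cdh11, OB-cadherin of mesenchymal cells, fell from 12.36, 12.35 and 12.31 to 8.71, 8.80 and 8.70 in the set of 6 and from 12.91, 12.76 and 12.91 to 7.79, 7.78 and 7.70 in the set of 12. The log2FC was -3.60 (SE 0.0467, adjusted p = 2.56e-13) and -5.11 (SE 0.0611, adjusted p = 1.21e-07). Cdh8, a type II cadherin of the nervous system, was at 10.39, 10.43 and 10.42 against 7.33, 7.30 and 7.34 in the set of 6, and at 12.18, 12.0004 and 12.25 against 7.27, 7.11 and 7.23 in the set of 12. Every MYC library was thus far below every library without it, with a log2FC of -3.09 (SE 0.0539, adjusted p = 1.85e-12) and -4.94 (SE 0.0833, adjusted p = 2.77e-07).

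Cdh13, the membrane-anchored T-cadherin that has no cytoplasmic tail, had the largest decrease in the set of 6 and none that was called in the set of 12. It fell from 10.75, 10.82 and 10.87 to 6.66, 6.63 and 6.63 in the set of 6 (log2FC -4.17, SE 0.0581, adjusted p = 3.78e-13). In the set of 12 it was at 6.09, 5.93 and 5.86 without MYC and at 5.83, 5.75 and 5.92 with it (log2FC -0.13). Cdh2, N-cadherin, was not called in either set. It read 14.25, 14.22 and 14.22 against 14.28, 14.27 and 14.27 with MYC in the set of 6 (log2FC 0.05, 95% interval from -0.01 to 0.10), and 15.44, 15.28 and 15.47 against 15.42, 15.33 and 15.30 in the set of 12 (log2FC -0.05, interval from -0.20 to 0.11). Cdh1, E-cadherin, had means below 5 in every group, with a log2FC of 0.00 and -0.04.

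Cdh3, P-cadherin of epithelia, was at 10.87, 10.79 and 10.85 without and 12.05, 11.92 and 11.88 with MYC in the set of 6, and at 11.46, 11.39 and 11.49 against 11.60, 11.61 and 11.61 in the set of 12. It rose in the set of 6 (log2FC 1.11, SE 0.0485, adjusted p = 2.31e-09) and its log2FC of 0.16 in the set of 12 was not called. Epithelial markers gave no uniform picture beside it. Of 9 measured, 1 rose and 1 fell in the set of 6 and 1 rose in the set of 12, Krt8 rising in both (log2FC 1.70 and 1.17), and 5 to 7 of the 9 had means below 5. Their summed level ran from 8.88 to 8.89 without and 8.999 to 9.14 with MYC in the set of 6, and from 8.79 to 8.92 against 9.24 to 9.50 in the set of 12. Their part in the value of Cdh3 was not tested.

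Among the other type II cadherins, Cdh10 fell in both sets (log2FC -1.33 and -0.75), and Cdh9 rose in the set of 6 (1.58, adjusted p = 8.72e-10) and read 0.06 in the set of 12. Cdh19, known from Schwann cell precursors, rose in both. It was at 5.27, 5.22 and 5.26 against 6.57, 6.47 and 6.54 (log2FC 1.27, adjusted p = 8.35e-10), and at 6.16, 6.17 and 6.18 against 6.96, 6.83 and 6.97 (log2FC 0.75, adjusted p = 4.19e-05). The myc-/- values of Cdh19 in the set of 12 had an SD of 0.0058, against 0.079 with MYC. Whether they lie at a floor of the scale was not tested. Cdh17, the intestinal LI-cadherin, fell in both (log2FC -1.49 and -0.75), and the second value dropped just under the cutoff with quantile normalization, at -0.58. In the set of 12, Cdh10 and Cdh17 had means of 5.87 and 5.92 with MYC and siCtrl. With siAHR-2 the means were 5.85 and 5.87, with an SD of 0.0067 and 0.0052. Whether a floor of the scale limits the decreases of Cdh10 and Cdh17 there was not tested. Cdh5, of endothelium, was not called (-0.54 and -0.04).

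**Figure D4:**
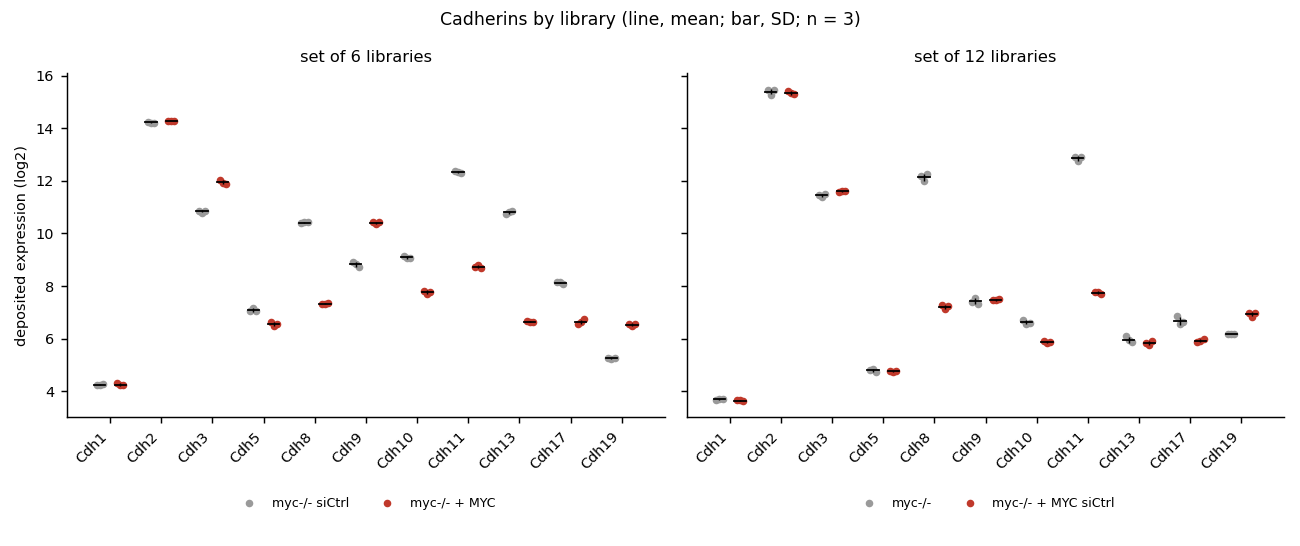
Deposited log2 value of cadherins in the libraries with and without MYC of each set (the siAHR groups are not drawn), with 3 points a group, a line at the mean and a bar for the SD. Cdh11 and Cdh8 fall with MYC in both sets, Cdh13 falls in the set of 6, and the drawn points of Cdh2 lie within 15.28 to 15.47 in the set of 12.

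Of the 4 like-named genes, 1 rose in the set of 6, and 1 rose and 1 fell in the set of 12, where all genes gave 12.5% higher and 14.3% lower in the smaller set and 10.8% and 14.7% in the larger. Itgbl1, a secreted protein with integrin-like EGF repeats, rose in the set of 6 from 9.16, 9.11 and 9.08 to 11.43, 11.25 and 11.08 (log2FC 2.14, SE 0.0773, adjusted p = 4.98e-10) and fell in the set of 12 from 10.33, 10.18 and 10.25 to 9.04, 8.96 and 8.75 (log2FC -1.33, SE 0.0903, adjusted p = 4.79e-05). Genes called in opposite directions were 0.341% of all genes. Itgb3bp, a centromere protein also known as CENP-R, rose in the set of 12 (0.94, adjusted p = 4.15e-05) and read 0.52 in the set of 6. Itgb1bp1 and Itgb1bp2, which bind the integrin β tail, were not called.

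The log2FC with MYC differed between the sets by the same cutoffs for 17 members. In a fit of both sets together, 4 members had a higher log2FC in the set of 12 and 13 a lower one, against 6.79% and 9.67% of all genes. Cdh13 had the largest difference (4.04, adjusted p = 2.41e-13), followed in size by Itgbl1 (-3.47, adjusted p = 1.04e-11), Itga10 (-2.64, adjusted p = 8.01e-12) and Itgb4 (2.08, adjusted p = 6.50e-11). Cdh8 (-1.86), Cdh11 (-1.51) and Itgb5 (-1.31) fell with MYC in both sets and further in the set of 12. Under quantile normalization the differences of Cdh8 and Cdh11 shrank to -1.09 and -0.80, and that of Lama1 from -0.72 to -0.34. The scale and the transfection label also differ between the sets, and their part in these differences cannot be told apart from each other.

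Members were called with siAHR-5 but not with siAHR-2, though both siRNAs lowered Ahr. With siAHR-2, 0 of 48 were called in either direction, against 0.159% higher and 0.311% lower of all genes, while 10 (20.8%) were higher and 6 (12.5%) lower at an unadjusted limma p under 0.05, against 19.9% and 20.5% of all genes. With siAHR-5, 4 were higher (8.33%) and 0 lower, against 1.48% and 0.849% of all genes, while 11 (22.9%) were higher and 7 (14.6%) lower at an unadjusted p under 0.05, against 26.5% and 21.2%. The members' log2FC ran from -0.32 to 0.39 with siAHR-2 and from -0.42 to 1.04 with siAHR-5. Both comparisons, and that of MYC in the set of 12, use the same siCtrl libraries.

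Cdh3 had the largest increase. It stood at 11.60, 11.61 and 11.61 with siCtrl, at 11.35, 11.24 and 11.38 with siAHR-2 and at 12.64, 12.68 and 12.62 with siAHR-5. The siAHR-5 libraries were above and the siAHR-2 libraries below the siCtrl libraries, with a log2FC of 1.04 (SE 0.0241, adjusted p = 7.45e-05) and -0.28 (adjusted p = 0.00668, under the fold cutoff). Itga11 read 10.21, 10.18 and 10.15 with siCtrl, 10.18, 10.05 and 10.07 with siAHR-2 and 10.94, 10.98 and 10.84 with siAHR-5. All siAHR-5 libraries were above the others (log2FC 0.74, SE 0.0473, adjusted p = 0.000431) and the siAHR-2 libraries overlapped siCtrl (log2FC -0.08), while the myc-/- libraries of the same set read 12.96 to 13.30.

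Itgb8 was at 9.21, 9.12 and 9.09 with siCtrl, at 9.52, 9.49 and 9.52 with siAHR-2 and at 10.04, 9.91 and 9.91 with siAHR-5. Both siRNAs gave values above siCtrl in all libraries, with a log2FC of 0.37 (adjusted p = 0.00335, under the fold cutoff) and 0.81 (SE 0.0571, adjusted p = 0.000531). Itga10 was at 6.90, 6.87 and 6.85, at 7.19, 6.91 and 7.23 and at 7.49, 7.60 and 7.74, a log2FC of 0.24 (adjusted p = 0.108) and 0.74 (SE 0.0708, adjusted p = 0.00106). Its siAHR-2 libraries spread more widely than the others.

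The siRNAs were compared with each other too. In that test 2 members were higher with siAHR-5 than with siAHR-2 and 1 lower, against 1.33% and 0.849% of all genes. They were Cdh3 (log2FC 1.32, adjusted p = 6.25e-05), Itga11 (0.82, adjusted p = 0.000357) and Lama4 (-0.63, adjusted p = 5.21e-05). Lama4 stood at 13.77, 13.78 and 13.71 with siCtrl, at 14.01, 13.98 and 13.98 with siAHR-2 and at 13.36 in all 3 siAHR-5 libraries. The siRNAs therefore lay on opposite sides of siCtrl, at 0.24 and -0.40, neither past the fold cutoff. Itgb8 (0.44) and Itga10 (0.50) did not pass the cutoffs between the siRNAs, with 95% intervals from 0.32 to 0.56 and from 0.23 to 0.77.

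Lamc1, Itgb5 and Itgb1 were not called with either siRNA. Lamc1 read 15.92, 15.89 and 15.87 with siCtrl, 15.89, 15.92 and 15.91 with siAHR-2 and 15.50, 15.44 and 15.46 with siAHR-5 (log2FC 0.02 and -0.42). Itgb5 read 15.15, 15.15 and 15.16, then 15.02, 15.02 and 15.04, then 14.78, 14.75 and 14.71 (log2FC -0.13 and -0.40). Itgb1 read 17.17, 17.11 and 17.12, then 16.81, 16.80 and 16.83, then 17.01, 16.89 and 16.99 (log2FC -0.32 and -0.17). None of these passed the fold cutoff. The siAHR-5 libraries of Lamc1, Itgb5 and Itgb1 all lay below siCtrl, and so did the siAHR-2 libraries of Itgb5 and Itgb1. Groups did not overlap for 37.5% of members with siAHR-5 and 35.4% with siAHR-2, against 50.5% and 43.3% of all genes. Ahr itself was called lower with both siRNAs, and its levels with siAHR-5 and siAHR-2 did not differ past the cutoffs (-0.11, adjusted p = 0.211).

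**Figure D5:**
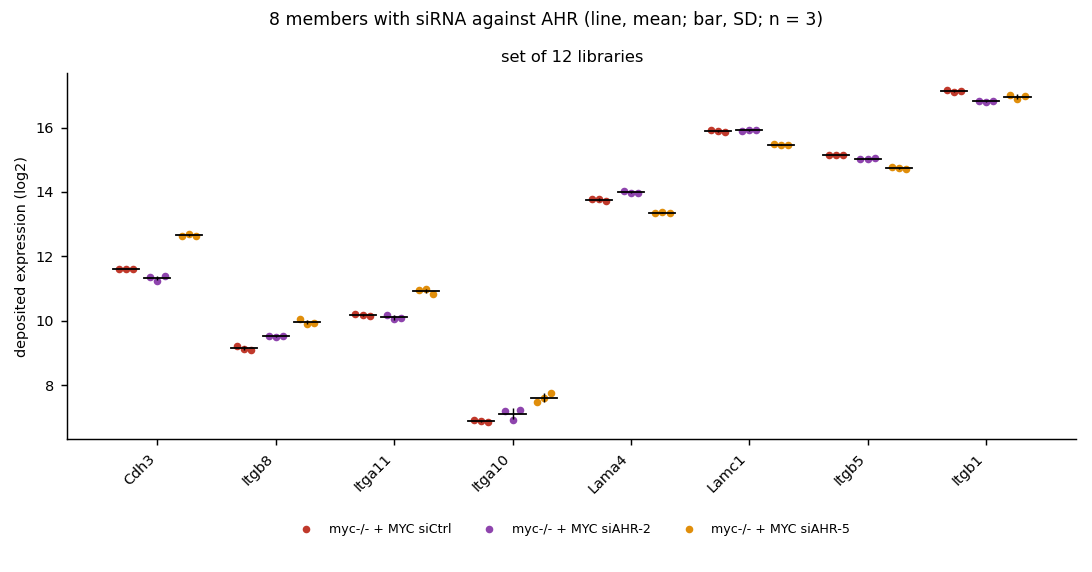
Deposited log2 value of 8 members in the myc-/- + MYC libraries with siCtrl, siAHR-2 and siAHR-5, with 3 points a group, a line at the mean and a bar for the SD. The siAHR-5 points of Cdh3 (12.62 to 12.68) lie above and the siAHR-2 points (11.24 to 11.38) below those of siCtrl, and for Lama4 the order is the reverse.

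Partners of the members were counted in lists of named genes, to be read beside the 14.3% (set of 6) and 14.7% (set of 12) of all genes that were lower and the 12.5% and 10.8% that were higher. Of 28 focal adhesion genes, which link integrins to actin, 13 (46.4%) fell with MYC in the set of 6 and 18 (64.3%) fell in the set of 12, while 0 rose in either, with a median log2FC of -0.48 and -0.93 against 0.00 over all genes. They included Tns1 (log2FC -1.90 and -3.29), Lims2 (-2.69 and -2.61), Parva (-1.65 and -1.94) and Vcl, vinculin (-0.63 and -1.56). Ptk2, focal adhesion kinase, was not called (-0.41 and -0.12). Of 17 integrin ligands other than laminins, 2 rose (11.8%) and 11 fell (64.7%) in the set of 6, whereas 1 rose (5.88%) and 10 fell (58.8%) in the set of 12. Fibronectin, Fn1, fell in both (-1.76 and -1.80), as did tenascin C, Tnc (-2.66 and -2.89), and thrombospondin 2, Thbs2 (-3.53 and -5.35). Nov rose in both (2.91 and 1.29).

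Of 14 basement membrane partners and other laminin receptors, 1 rose (7.14%) and 5 fell (35.7%) in the set of 6, and 6 fell (42.9%) and 0 rose in the set of 12. Col4a1, a chain of collagen IV, fell (-1.41 and -2.13), and so did Dag1, dystroglycan (-0.84 and -0.79). Of 12 catenins and other cadherin partners, 2 rose (16.7%) and 4 fell (33.3%) in the set of 6, whereas 1 rose (8.33%) and 5 fell (41.7%) in the set of 12. Ctnnb1, β-catenin, was not called (0.11 and 0.34), and Arvcf fell in the set of 6 (-0.81) but rose in the set of 12 (1.36). Of 59 other cadherin superfamily genes, 2 rose in each set (3.39%), 15 fell in the set of 6 (25.4%) and 17 fell in the set of 12 (28.8%), and counts of clustered protocadherins are uncertain because these genes share sequence.

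Of 14 transcription factors known to act on cadherin genes, 2 rose (14.3%) and 5 fell (35.7%) in the set of 6, whereas 1 rose (7.14%) and 4 fell (28.6%) in the set of 12. Twist1 rose (0.77 and 0.61), Twist2 fell (-1.39 and -1.71), and Snai1 and Snai2 fell in the set of 12 (-1.81 and -1.19) without being called in the set of 6 (-0.30 and 0.15). With siAHR-2 and with siAHR-5, 0 genes of any of these 6 lists were called. Fibroblast markers moved with MYC as well. Of 11, 1 rose and 4 fell in the set of 6, and 6 fell and 0 rose in the set of 12. Their summed level on the log2 scale ran from 20.12 to 20.13 without and 19.54 to 19.66 with MYC in the set of 6. In the set of 12 it ran from 21.52 to 21.58 against 19.64 to 19.70. These sums weigh the highest markers most, and without MYC the highest was Col1a1. It fell by 1.73 in the set of 6 and by 5.95 in the set of 12. Vim was not called (log2FC 0.13 and -0.17). Col3a1 rose in the smaller set (1.30) and was not called in the larger (-0.08). The median log2FC of the 11 markers was -0.13 and -0.61, so the sums do not speak for all of them. Endothelial markers gave 1 higher and 2 lower of 6, then 0 higher and 2 lower, with sums of 12.50 to 12.55 against 11.85 to 11.88 and of 12.59 to 12.70 against 11.83 to 11.93, Pecam1 not being called. Egfl7, the highest endothelial marker in every group, fell in both sets (-0.61 and -0.70). Muscle markers gave 0 higher and 2 lower of 4, then 0 higher and 3 lower, with sums of 10.67 to 10.78 against 9.29 to 9.51 and of 10.18 to 10.43 against 9.07 to 9.23. Of the 11 fibroblast markers, 1 was called higher with siAHR-5 (Thy1, 0.75) and 0 lower, and 0 were called with siAHR-2. Under the fold cutoff, Pdgfrb was higher with siAHR-5 (0.55) and Vim lower with siAHR-2 (-0.36) and siAHR-5 (-0.48). Fibroblast sums ran from 19.64 to 19.70 with siCtrl, 19.36 to 19.37 with siAHR-2 and 19.28 to 19.34 with siAHR-5. Leukocyte sums ran from 10.45 to 10.65, 10.48 to 10.61 and 10.93 to 11.01. Cd14, the highest leukocyte marker in these groups, was higher with siAHR-5 (0.54, limma adjusted p = 0.0054), under the fold cutoff. The other leukocyte markers had an adjusted p above 0.05 with siAHR-5. The part of cell state or cell make-up in the members' changes was not tested.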

How the data were processed

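Per the labels, the RNA was poly-A selected and sequenced at a service provider. The authors assessed read quality (NGS-QC-Toolkit), mapped to the rat assembly rn6 using HISAT2 2.1.0, removed genes with fewer than 10 reads in all and normalized with DESeq2. The counter and the annotation are not given in the sources used here. The authors deposited log2 values for 13188 genes, named as log CPM, but their linear sums are 86.3 to 161 times 1000000, so the depth and the transformation are unknown. Precision was taken from the spread between 3 cultures. Whether the transformation makes fold changes of low genes smaller was not tested. Value columns without a sample numbered 0, as did identical library pairs.

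Libraries were grouped by their labels. limma 3.58.1 in R 4.3.3 (lmFit, eBayes with trend) was fitted to the deposited values of the groups compared, with Benjamini-Hochberg adjustment over all genes. The fold and adjusted p cutoffs were those of the study. The fits were tested on simulated data. Members, lists and motifs were chosen with earlier results of these data known. Values by library are given for called members with a group mean of at least 5 (the 8 largest changes per MYC comparison and the 5 largest per siRNA), for members called in opposite directions and for the 2 members with the largest means among integrin α chains, integrin β chains, laminins and cadherins; others named in the text were chosen after their values were seen. The values of 1 member are not reported here, though it is in the counts. Python 3.11.15 and matplotlib 3.10.9 made the figures. Alternatives were a false discovery rate of 0.05 without a fold cutoff, another scaling, filter, pseudocount or variance model, all 18 libraries in 1 fit, a replicate block and leaving out each library.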

Additional observations from a re-analysis of the deposited data

Results flagged for a closer look

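The change with MYC differed between the set of 12 and the set of 6 for 17 members, of which those reported are given here, by limma's test of that difference, in which MYC, the scale of the values and the transfection label are not separated. Cadherins with a lower log2FC in the set of 12 were Cdh8 (difference -1.86), Cdh9 (-1.53), Cdh11 (-1.51) and Cdh3 (-0.95), and those with a higher one were Cdh13 (4.04) and Cdh17 (0.74). Among integrin chains the difference was -2.64 for Itga10, -1.31 for Itgb5, -1.28 for Itga8 and -0.65 for Itgae, and 2.08 for Itgb4 and 0.64 for Itgb7. Among laminin chains it was -1.40 for Lamb2, -0.72 for Lama1 and -0.67 for Lama4. Itgbl1, which went in opposite directions, differed by -3.47.

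The siRNAs against Ahr differed from each other in 3 members, with a log2FC of siAHR-5 against siAHR-2 of 1.32 for Cdh3, 0.82 for Itga11 and -0.63 for Lama4, although Ahr itself was at 11.76 to 11.95 and 11.97 to 12.03.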

How the results depend on the processing

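With a false discovery rate under 0.05 and no fold cutoff, 13 members were higher (27.1%) and 23 lower (47.9%) with MYC in the set of 6, against 37.3% and 39.0% of all genes. In the larger set they were 8 (16.7%) and 23 (47.9%) against 31.6% and 33.1%, with siAHR-2 8 (16.7%) and 5 (10.4%) against 13.7% and 15.5%, and with siAHR-5 9 (18.8%) and 5 (10.4%) against 21.1% and 18.1%. Between the siRNAs they were 12 (25.0%) and 9 (18.8%) against 22.1% and 17.0%, and in the difference between the sets 11 (22.9%) and 22 (45.8%) against 24.8% and 30.1%. No called member reversed under any alternative run. Quantile normalization took the log2FC of Lamc1 in the set of 6 and Cdh17 in the set of 12 to -0.58 and the difference of Lama1 to -0.34 (adjusted p = 0.0626), and median centring took the differences of Itgae to -0.57 and Lama4 to -0.58. The cause was not tested. Leaving out 1 library at a time gave 7 higher and 14 lower members for MYC in the set of 6, 3 and 15 for MYC in the larger set, 0 and 0 with siAHR-2, 4 and 0 with siAHR-5, and 2 and 1 between the siRNAs in every fit. The difference gave 3 to 5 higher and 12 to 14 lower, Lama1 (-0.58) being lost without myc-/- replicate 1, and Itgae (-0.58) and Itgb7 (0.54) without myc-/- siCtrl replicate 2. With replicate number as a block the counts were 7 and 14, 3 and 15, 0 and 0, 4 and 0, 2 and 1, and 4 and 13. Correlations of same-numbered libraries ran from -0.26 to 0.24, and the numbers were not taken as pairs. Their mean was highest with siAHR-5, at 0.097 (-0.049 for other numbers), and was 0.089 (-0.044) between the siRNAs. The block took the calls over all genes with siAHR-2 from 21 higher and 41 lower to 0 and 0. The share of higher calls among all genes went with quantile normalization from 46.7% to 51.7% for MYC in the set of 6 and from 42.4% to 52.0% in the larger set, whose calls went from 1425 higher and 1936 lower to 1796 and 1661. With siAHR-5 it was 63.5%, and 50.2% with quantile normalization and 45.9% with median centring. With siAHR-2 it was 33.9% and 22.1% with median centring, and in the difference 41.3% and 52.6%. Every scaling moved the median of all genes by less than 0.1. No depth is known, so what depth limits cannot be stated.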
